A study of Homo sapiens with 12 samples.

Results

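The SM segment is the stretch of 1011 nt that opens the coding region of 2 firefly luciferase reporters, which differ in the codons of the luciferase that follows it. Its codons were taken from the deposited region list, where SM spanned positions 3393 to 4403 of the nonoptimal plasmid map and 2627 to 3637 of the optimal map. They were matched between the reporters by codon number, and they make up 23.4% of the 1439 codons in SM, the recoded luciferase (FLuc), GFP and the Renilla luciferase of the co-transfected plasmid. Both SM segments follow a listed leader of 11 nt and precede FLuc directly. The labels do not spell out the abbreviation. That both reporters hold the same SM codons rests on the shared name and length, since the analysis used positions on the maps and no plasmid sequence.

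HEK293T, an established cell line from human embryonic kidney that is easy to transfect, was labelled WT in every group. Cells received the SM-nonopt FLuc-GFP or the SM-opt FLuc-GFP plasmid, each with the Renilla plasmid, 24 hours before harvest, and were treated with cycloheximide, which holds ribosomes on the mRNA. Ribo-seq sequences the fragments that ribosomes protect, and RNA-seq measured the RNA. Each of the 4 groups (2 assays, 2 reporters) had 3 replicates. The expression was transient and in 1 cell line, and the labels do not say that replicates were separate cultures, so the tests measure only the spread between these samples.

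A ribosome reads an mRNA from its start codon, and its speed varies with the codon in its decoding site. Codons called optimal are as a rule decoded faster, and mRNAs rich in them are often more stable. A segment that lies before a recoded stretch is read by ribosomes that have not yet met the changed codons. Its footprints per RNA therefore depend on how often ribosomes load and on how fast they pass or queue there, which footprint counts alone do not separate.

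In Ribo-seq, a footprint was a sense alignment of 27 to 30 nt, assigned to the codon that holds its 5′ end. A codon named below is thus where footprints began, and not the codon in the decoding site. SM received 310, 520 and 126 footprints in nonoptimal replicates 1, 2 and 3 and 242, 316 and 224 in optimal replicates 1, 2 and 3. The 1738 footprints came to between 0.374 and 1.54 per codon and library, so single codons rest on few reads. The RNA-seq mean depth over SM was between 246 and 529 in the nonoptimal and between 927 and 1492 in the optimal libraries. Renilla, the reference for levels, received 3002, 3855 and 692 footprints in the nonoptimal libraries and only 391, 575 and 417 in the optimal ones, and every level below depends on that scale.

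The SM RNA was compared first, as RNA-seq depth per nt relative to Renilla. Nonoptimal replicates 1, 2 and 3 had 0.294, 0.284 and 0.354, and optimal replicates 1, 2 and 3 had 1.03, 0.884 and 0.942. The optimal libraries were each higher than any nonoptimal library. With means of 0.311 ± 0.0379 (SD, n = 3) and 0.950 ± 0.0711 (SD, n = 3), the optimal reporter was 3.07-fold higher, or 1.62 on the log2 scale (SE 0.12). Folds and log2 differences between the reporters, here and below, compare means of log2 values and need not equal ratios of the printed means. An exact permutation of the libraries, two-sided here and throughout, gave p = 0.1, which is the smallest p for 3 against 3 values, and 0.175 after adjustment over 7 comparisons. Scaled by the sum of the 4 coding regions the log2 difference was 0.44. The 3.07-fold value is relative to the co-transfected Renilla plasmid, whose unscaled mean RNA depth was 1264 beside the nonoptimal reporter and 1371 beside the optimal one. How many cells took up each plasmid, and how much RNA each cell held, was not tested in these bulk samples.

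The footprint level, 5′ ends per codon of SM relative to those of Renilla, was 0.0956, 0.125 and 0.169 with nonoptimal FLuc, and 0.573, 0.509 and 0.497 with optimal FLuc. The groups were again apart. Mean levels of 0.130 ± 0.0367 (SD, n = 3) and 0.526 ± 0.0408 (SD, n = 3) put the optimal reporter 4.16-fold higher, or 2.06 on the log2 scale (SE 0.24), with an exact permutation p of 0.1 (adjusted p = 0.175). Unscaled SM footprints overlapped between the reporters, with a value of -0.082 on the log2 scale (exact permutation p = 1). Scaled by the sum of the 4 coding regions it was 1.17.

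Footprints per RNA is the ratio of these levels between same-numbered Ribo-seq and RNA-seq libraries, which sets ribosome occupancy against the amount of template. For SM it was 0.326, 0.439 and 0.476 with the nonoptimal and 0.559, 0.576 and 0.528 with the optimal luciferase. The 3 optimal values lay together above the 3 nonoptimal ones, of which replicate 1 was the lowest. From 0.414 ± 0.0784 (SD, n = 3) to 0.554 ± 0.0242 (SD, n = 3) the step was 1.36-fold, or 0.44 on the log2 scale (SE 0.17), again with an exact permutation p of 0.1 (adjusted p = 0.175). The separation rests on matching the libraries by number: divided by the mean RNA level of the group, the groups overlapped, at 0.44 on the log2 scale (exact permutation p = 0.3). With matched libraries, the log2 difference was 0.28 without nonoptimal replicate 1, 0.62 without the first 25 codons of SM and -1.89 without any scaling between libraries.

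**Figure D1:**
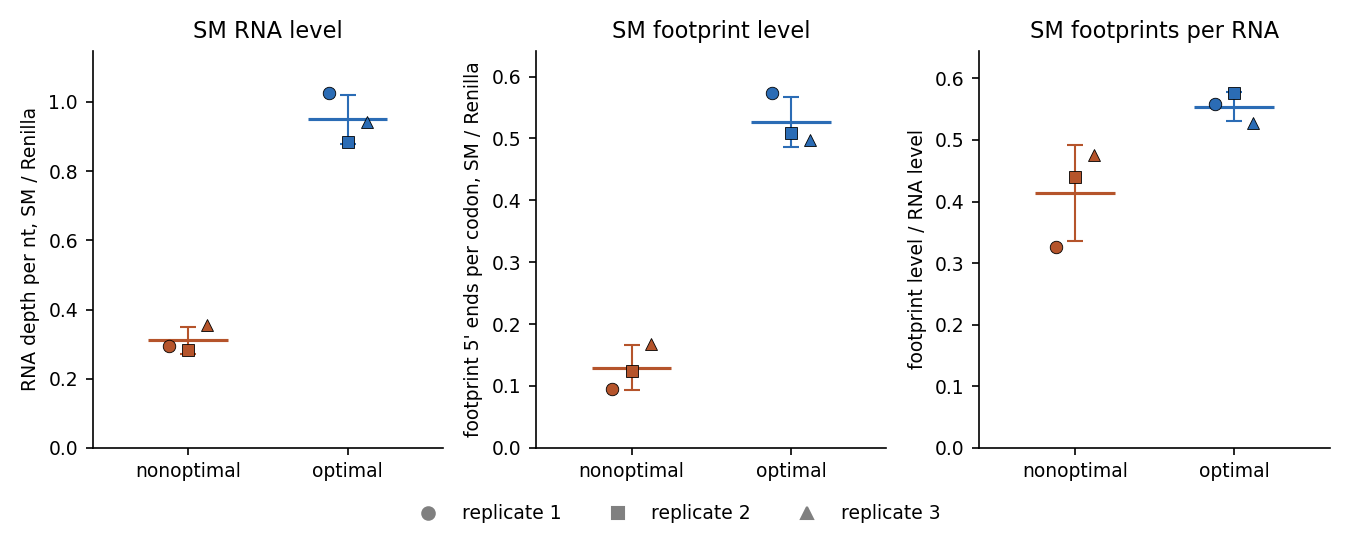
RNA level, footprint level and footprints per RNA of the SM segment, relative to Renilla, in each library (points), with the mean (line) and SD (bars) of 3 replicates. The nonoptimal footprints per RNA run from 0.326 to 0.476 and the optimal ones from 0.528 to 0.576.

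SM was then set against the segments that follow it within the same library, which needs no scaling by Renilla. These ratios of RNA and of footprints alone were chosen after the data were seen. RNA depth over SM was 1.24, 1.27 and 1.39 times that over nonoptimal FLuc, and 1.03, 1.02 and 1.10 times that over optimal FLuc. Against GFP, the other segment with a shared name, it was 1.02, 0.978 and 1.06 times and 0.836, 0.822 and 0.838 times. In both ratios the 3 nonoptimal values lay above the 3 optimal ones. The log2 differences, optimal minus nonoptimal, were -0.30 (SE 0.062) for SM over FLuc and -0.29 (SE 0.033) for SM over GFP, each larger than the spread between replicates (exact permutation p of 0.1, adjusted p = 0.2 over 4 ratios). The nonoptimal ratio was thus 1.24-fold the optimal one against FLuc and 1.22-fold against GFP. RNA alignments were counted per position, so this is a comparison of coverage along the mRNA.

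In footprints the same ratios overlapped between the reporters. Nonoptimal libraries had 1.55 ± 0.250 (SD, n = 3) times as many footprints per codon on SM as on FLuc, and optimal libraries 1.37 ± 0.170 (SD, n = 3) times, which is -0.17 on the log2 scale (SE 0.17; exact permutation p = 0.6). Against GFP the values were 1.78 ± 0.236 (SD, n = 3) and 1.74 ± 0.202 (SD, n = 3), or -0.026 on the log2 scale (SE 0.14; exact permutation p = 0.7).

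Per RNA, SM taken whole carried more footprints than the segments after it in every library. Its first 25 codons, where footprints were denser than over the rest, are included. The excess over FLuc in the nonoptimal libraries depends on these codons. Footprints per RNA on SM were between 1.10 and 1.44 times those on FLuc and between 1.62 and 2.39 times those on GFP, higher in 6 of 6 libraries in each case. Exact sign-flip permutation tests over the 6 libraries, added after the data were seen, gave p = 0.0312 for each, the smallest possible, and an adjusted p of 0.0469 over 6 relations. Whether the reporters differ in this was tested as planned. SM over FLuc came to 1.19 ± 0.113 (SD, n = 3) with the nonoptimal and 1.31 ± 0.154 (SD, n = 3) with the optimal codons, which differ by 0.13 on the log2 scale (SE 0.13; exact permutation p = 0.3, adjusted p = 0.35). SM over GFP came to 1.74 ± 0.172 (SD, n = 3) and 2.09 ± 0.264 (SD, n = 3), which differ by 0.26 (SE 0.13; exact permutation p = 0.2, adjusted p = 0.28). Over the whole of SM, the reporter difference in footprints per RNA was thus not told apart from that on FLuc or GFP. On the log2 scale it was 0.31 (SE 0.15) on FLuc and 0.18 (SE 0.15) on GFP. Without its first 25 codons the difference on SM was 0.62, and whether that differs from FLuc or GFP was not tested.

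Along SM, footprints were concentrated on a few codons in both reporters. The mean shares of SM footprints per codon in the 2 reporters had Pearson r = 0.76 and Spearman rho = 0.66 over all SM codons. Single libraries of different reporters had a mean Pearson r of 0.59 over 9 pairs, beside 0.60 over the 3 nonoptimal pairs and 0.67 over the 3 optimal pairs. Libraries of one reporter were thus about as alike on SM as libraries of different reporters. On FLuc, whose codons were changed, the mean r was 0.11 between the reporters and 0.66 and 0.68 within them. The likeness was not particular to SM. On GFP the mean r was 0.59 between the reporters and 0.59 (nonoptimal) and 0.67 (optimal) within them. On Renilla it was 0.69 between, and 0.77 (nonoptimal) and 0.71 (optimal) within. These correlations are descriptions: codons of one library share its depth, and low counts lower r.

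The 10 codons with the highest mean share over the 6 libraries held between 26.1% and 36.9% of the SM footprints of a library. They were codons 1, 2, 3, 4 and 15 near the start, codons 101 and 167 in the middle, and codons 271, 280 and 312 toward FLuc. Codon 280, at positions 4230 to 4232 of the nonoptimal and 3464 to 3466 of the optimal map, had the highest mean. It held 4.19%, 2.50% and 1.59% of SM footprints in the nonoptimal replicates, from 13, 13 and 2 reads, and 5.79%, 6.96% and 7.59% in the optimal replicates, from 14, 22 and 17 reads. All 3 optimal shares lay above the nonoptimal ones. Codons 2 and 4 were separated the other way. Codon 2 held 3.23%, 3.46% and 3.97% of nonoptimal and 2.48%, 0.949% and 3.13% of optimal SM footprints, and codon 4 held 2.26%, 3.46% and 6.35% against 1.65%, 2.22% and 0.446%. The groups overlapped at the other 7 of the 10 codons. Codon 101 held 5.48%, 4.81% and 2.38% of nonoptimal and 6.61%, 6.01% and 0.446% of optimal SM footprints. It was thus high in 5 of 6 libraries and rested on 1 read in optimal replicate 3. Codon 312 held 0.645%, 6.92% and 6.35% of nonoptimal and 1.65%, 1.27% and 4.46% of optimal SM footprints, so replicates of one reporter differed as much as the reporters. Codon 3 likewise ran from 1.94% to 7.94% in the nonoptimal and from 1.34% to 4.11% in the optimal libraries.

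Groups of 3 did not overlap in 14 SM codons (9 higher and 5 lower in the optimal reporter), or 4.15% of them, where the background over all 1439 codons was 7.44%. A share of codons below the background is no result about SM. On FLuc it was 60 of 549 codons. No footprint of any library started on 101 SM codons, or 30.0% of them, beside 30.6% on FLuc, and 22 codons had one in all 6 libraries. The longest run without a footprint start was 5 codons, 89 to 93, where RNA depth was 1.14 and 1.05 times the SM mean in the nonoptimal and optimal libraries. No 27 to 30 nt read over SM aligned to a second place.

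**Figure D2:**
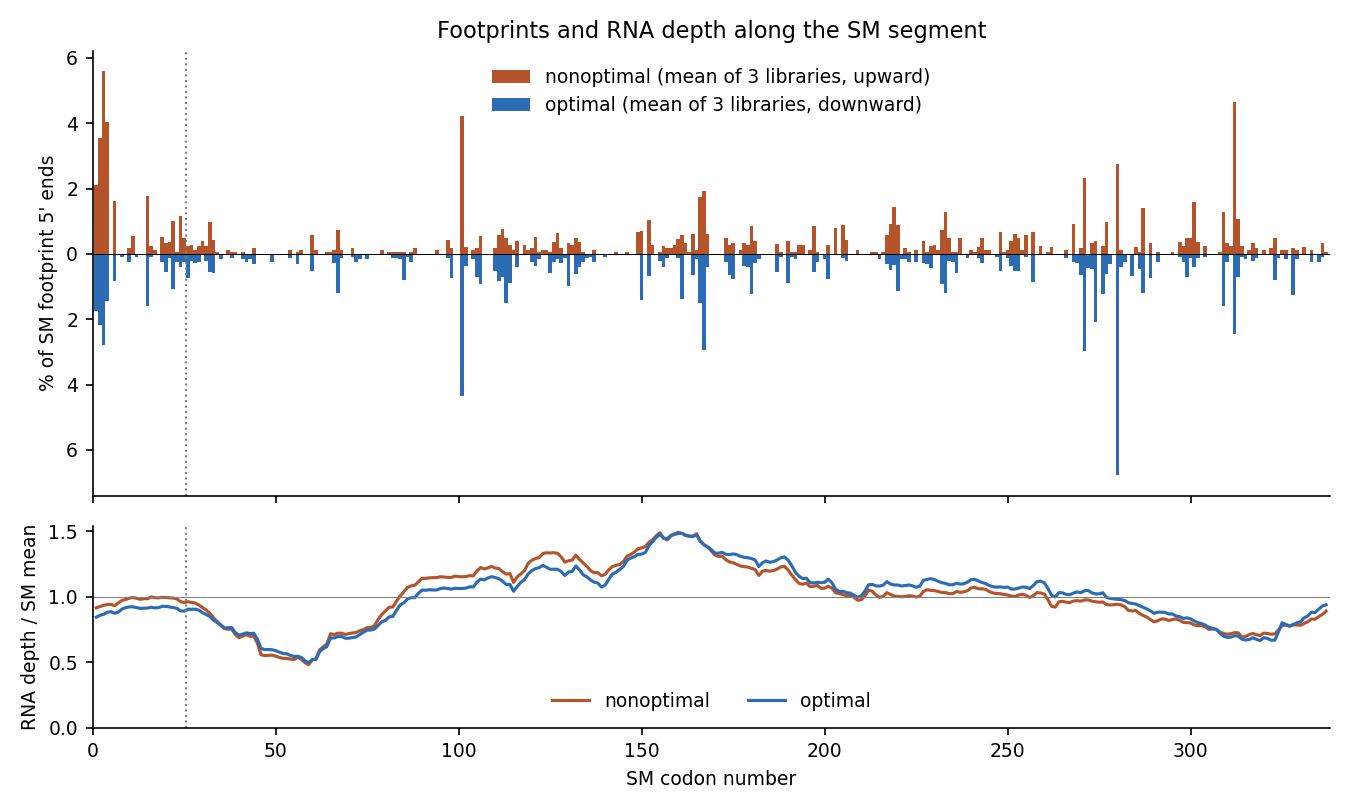
Share of SM footprint 5′ ends on each SM codon (nonoptimal upward, optimal downward, means of 3 libraries), above RNA depth per codon relative to the SM mean. The dotted line marks the end of codon 25, and tall bars stand on both sides at codons 101, 280 and 312 among others.

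RNA coverage along SM was uneven in both reporters. SM was cut into codons 1 to 25 and 13 windows of 24 codons. Relative to the SM mean, RNA depth was lowest in window 3, codons 50 to 73, at 0.610 in the nonoptimal and 0.607 in the optimal reporter, and highest in window 7, codons 146 to 169, at 1.42 and 1.41. None of the 14 SM windows passed limma's test of the reporter difference in RNA at an adjusted p of 0.05, and 2 had an unadjusted p below 0.05. The background over the 61 windows of all segments was 18.0%, and the 11 windows called were all in FLuc. RNA differences over SM ran from -0.10 to 0.10 on the log2 scale, and groups did not overlap in 4 of the 14 windows, beside a background of 32.8%. Leaving out nonoptimal replicate 3 called 3 SM windows (1, 4 and 12), leaving out replicate 3 of both reporters 2 (1 and 12), and leaving out nonoptimal replicate 2, alone or with its optimal counterpart, 1 (window 6).

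Footprint density followed another pattern than RNA along SM. It was highest at the start and in windows 12 (codons 266 to 289), 5 (98 to 121) and 7 (146 to 169), whose mean densities were 2.15, 1.57 and 1.44 times the SM mean, and lowest in window 4, codons 74 to 97, at 0.245 times. Over the 14 windows, the mean footprint and RNA densities had Pearson r = 0.12 in the nonoptimal and 0.20 in the optimal reporter.

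No SM window passed limma's test of the reporter difference in footprints at an adjusted p of 0.05, and 2 of 14 (windows 1 and 12) had an unadjusted p below 0.05. The background over 61 windows was 11.5%, and the 7 windows called were all in FLuc, where they were 7 of 23. Whether SM and FLuc differ in this share was not tested. SM differences ran from -0.71 to 0.98 on the log2 scale with a median size of 0.46, beside 0.44 over all windows, 0.70 on FLuc and 0.22 on Renilla. The 95% interval reached 0.79 to either side at the median SM window, and its width differed between windows. Groups of 3 did not overlap in 4 SM windows, or 28.6%, beside a background of 27.9%.

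Window 12, which holds codons 271 and 280, came nearest to the threshold. It held 14.2%, 10.6% and 6.35% of the SM footprints in nonoptimal replicates 1, 2 and 3, against 17.8%, 18.7% and 23.2% for the optimal ones, and the groups did not overlap. Its log2 difference was 0.98 (SE 0.29, limma adjusted p = 0.0612). Without nonoptimal replicate 1 it passed, with a limma adjusted p of 0.0308, and after division by the RNA profile it did not (limma adjusted p = 0.182).

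**Figure D3:**
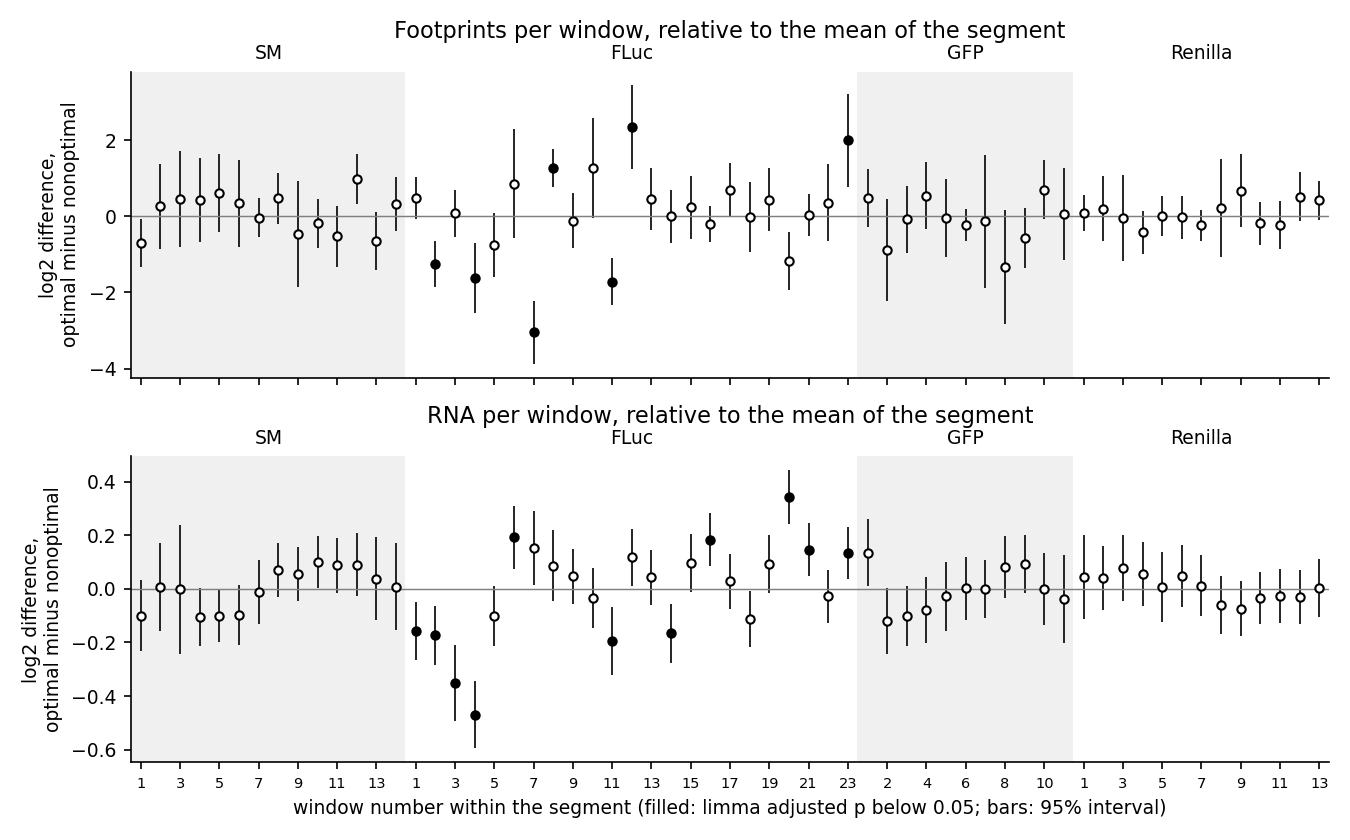
Optimal minus nonoptimal reporter, as a log2 difference, in each window of the 4 segments, relative to the mean of the segment, for footprints (top) and RNA (bottom), with 95% intervals; filled points passed limma's test. All filled points lie in FLuc, 7 in footprints and 11 in RNA, and none in SM.

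At the start of SM, ribosome footprints were denser than over the rest in all 6 libraries. Codons 1 to 25 held 16.5%, 22.1% and 32.5% of SM footprints in the nonoptimal replicates, with 95% Wilson intervals, which cover counting error only, of 12.7% to 21.0%, 18.8% to 25.9% and 24.98% to 41.1%. In the optimal replicates they held 16.1%, 14.9% and 11.2%, with intervals of 12.02% to 21.3%, 11.4% to 19.2% and 7.67% to 15.96%. Every nonoptimal share was above every optimal one, but the intervals of nonoptimal and optimal replicate 1 overlapped almost fully.

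Per codon, density in the first 25 codons was 2.46, 3.54 and 6.02 times that in the rest of SM ahead of nonoptimal FLuc, and 2.40, 2.18 and 1.57 times ahead of optimal FLuc. The mean ratio was 4.01 ± 1.83 (SD, n = 3) against 2.05 ± 0.430 (SD, n = 3), or -0.89 on the log2 scale, optimal minus nonoptimal (SE 0.42; exact permutation p = 0.1, adjusted p = 0.175). Renilla, read in the same libraries, had 1.34 ± 0.147 (SD, n = 3) and 1.43 ± 0.171 (SD, n = 3), or 0.094 on the log2 scale (SE 0.14; exact permutation p = 0.5). On FLuc the ratio was 1.23 ± 0.200 (SD, n = 3) and 1.82 ± 0.414 (SD, n = 3), or 0.55 on the log2 scale (SE 0.24; exact permutation p = 0.2). On GFP it was 1.15 ± 0.335 (SD, n = 3) and 1.89 ± 1.06 (SD, n = 3), or 0.62 (SE 0.50; exact permutation p = 0.3). Both were thus higher on average in the optimal reporter, unlike SM, but on each the groups overlapped. On GFP the optimal mean rested largely on replicate 3, at 3.09 beside 1.47 and 1.10 in replicates 1 and 2. RNA depth did not show the excess: the same ratio in RNA over SM was 0.970 ± 0.116 (SD, n = 3) and 0.896 ± 0.0253 (SD, n = 3). The SM ratio exceeded the Renilla ratio in 6 of 6 libraries, the quotient lying between 1.002 and 4.25 (exact sign-flip permutation test added after the data were seen, p = 0.0312, adjusted p = 0.0469 over 6 relations). The reporter difference rests in part on nonoptimal replicate 3, which had the fewest SM footprints, 41 of them in the first 25 codons. Without it the log2 difference was -0.55 (exact permutation p = 0.2), and without replicate 3 of both reporters it was -0.37 (exact permutation p = 0.333, the smallest that 2 against 2 values allow). In both cases the remaining groups stayed apart. Some settings that kept every library did make the groups overlap. With all footprint lengths the log2 difference was -0.56 (exact permutation p = 0.2). With only 5′ ends in the main frame it was -0.70 (exact permutation p = 0.3), and without the highest 5% of codons -0.58 (exact permutation p = 0.3).

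Codons 1 to 4, the very start, held 9.03%, 16.2% and 20.6% of nonoptimal and 8.68%, 9.49% and 6.25% of optimal SM footprints, and the groups overlapped (exact permutation p = 0.2, chosen after the data were seen). Codons 5 to 25 held 8.43% ± 3.10 (SD, n = 3) and 5.91% ± 1.34 (SD, n = 3), also overlapping (exact permutation p = 0.3).

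**Figure D4:**
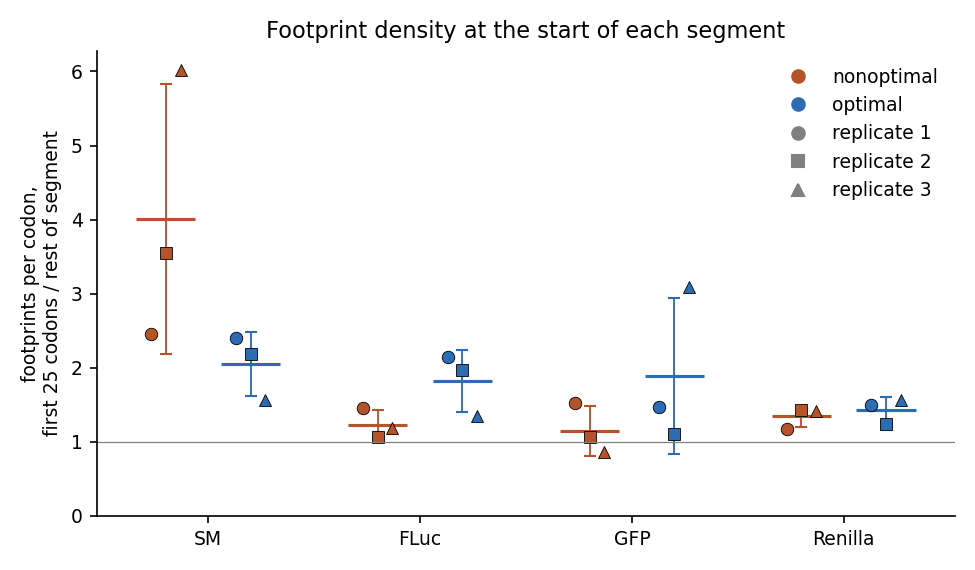
Footprints per codon in the first 25 codons of each segment divided by those in its remaining codons, per library (points), with mean (line) and SD (bars) of 3 replicates. SM in the nonoptimal reporter runs from 2.46 to 6.02 and in the optimal one from 1.57 to 2.40, while Renilla lies between 1.17 and 1.56 beside either reporter. Over both reporters FLuc runs from 1.06 to 2.14 and GFP from 0.864 to 3.09.

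Footprints on SM kept the reading frame in both reporters, as translating ribosomes do. The second codon position, the most frequent over Renilla, held 68.7%, 77.9% and 77.8% of the 5′ ends in nonoptimal replicates 1, 2 and 3, against 76.4%, 77.8% and 75.9% for the optimal ones. The groups overlapped, at 74.8% ± 5.27 (SD, n = 3) and 76.7% ± 1.01 (SD, n = 3), with an exact permutation p of 0.9. Nonoptimal replicate 1 was low (95% Wilson interval 63.3% to 73.6%), and in it the share was 51.0% within the first 25 codons and 72.2% over the rest. By length, the share in single libraries ran from 45.5% to 73.9% at 27 nt and from 76.0% to 93.0% at 29 nt.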

How the data were processed

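Ribo-seq and RNA-seq were made from HEK293T cells carrying 1 of 2 firefly reporters and a Renilla reporter. The authors deposited, per library, alignments to the plasmid maps with start, end and strand, and a region list. UMI-tools, Bowtie 1.2.2, SAMtools 1.12, STAR 2.6.0a, Salmon 1.6.0 and bedtools are named in the submitters' processing notes, without their role for these files, and the alignment settings are not given in the sources used here. Alignment positions are the only deposited values. Footprints were counted from them, and windows were tested on log2 densities by choice, without a count model. Host alignments and library totals were not analysed here.

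Lines repeating an alignment were merged. Regions were taken to include their first and last listed position, which makes the coding regions whole codons except 1 extra nt in the optimal GFP, which was left out. The plasmids received between 1975 and 11028 Ribo-seq and between 26422 and 90999 RNA-seq alignments per library. No read name occurred in 2 libraries of one assay. RNA depth counted all alignments of 151 nt, both mates. All SM alignments had a score of 255.

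Windows of FLuc, GFP and Renilla had 24 codons, the last of a segment fewer. Windows were tested with limma 3.58.1 (R 4.3.3, trend) on log2 density relative to the window's own segment, with a pseudocount of 0.5 5′ ends per window, and adjusted over all 61 windows by Benjamini-Hochberg. Single values were tested on log2 values (the frame share on percent) by exact two-sided permutation. All SM windows are reported, and single codons by the rule of the 10 highest mean shares, except where a sentence says otherwise. Scripts were tested on simulated data, in which window counts were scaled by the total over all windows and not by segment. Alternatives covered scale, footprint length, frame, a 12 nt offset, single alignment, the highest 5% of codons, RNA counting, windows of 12 and 48 codons, pseudocount, block and leaving out libraries. The members and lists were chosen with earlier results of these data known.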

Additional observations from a re-analysis of the deposited data

Results flagged for a closer look

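Some alignments over SM enter none of the comparisons and are given here because they were more than 3, the limit for a count of 0, in a series whose samples all carry the plasmids. Sense Ribo-seq alignments outside 27 to 30 nt numbered 620 over the 6 libraries, between 20.1% and 33.7% of the sense alignments of a library. Those of 24 to 26 nt numbered 106, 99 and 9 with the nonoptimal and 48, 61 and 44 with the optimal reporter. A group of 119 alignments was exactly 18 nt long, and 114 of these began at the same nucleotide, position 113 of SM in codon 38 (positions 3505 and 2739 of the nonoptimal and optimal maps). At that codon nonoptimal replicates 1, 2 and 3 had 13, 24 and 26 of them and optimal replicates 1, 2 and 3 had 4, 21 and 26. Footprints of 27 to 30 nt starting at that codon numbered 0 or 1 per library. The 18 nt alignments carried distinct read identifiers within each library, and their number did not follow that of SM footprints: nonoptimal replicate 3 had the fewest footprints, 126, and the most 18 nt alignments, 27. Their source was not tested.

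Antisense Ribo-seq alignments over SM numbered 53, with 6, 4 and 3 in the nonoptimal and 17, 10 and 13 in the optimal replicates. All nonoptimal libraries were below all optimal ones (exact permutation p of 0.1, the smallest for these group sizes). Of them, 46 were 139 nt long and 6 were of footprint length.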

How the results depend on the processing

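Of 104 recomputed differences in the 7 planned single values, 92 moved by less than 1 pooled SD, 6 by more and 6 changed sign, not counting the replicate block or the ratios of SM to FLuc and GFP added later. The scale mattered most: by the sum of the 4 coding regions the log2 differences of RNA level, footprint level and footprints per RNA were 0.44, 1.17 and 0.73, and with no scaling 1.81, -0.082 and -1.89. SM over FLuc, footprints per RNA, was -0.060 with all lengths, -0.028 with 5′ ends in the main frame only and 0.37 without the highest 5% of codons. The cause was not tested. Leaving out libraries, log2 differences ranged from 1.52 to 1.72 (RNA level), 1.79 to 2.30 (footprint level), 0.27 to 0.59 (footprints per RNA), -1.32 to -0.37 (first 25 codons), 0.036 to 0.23 (SM over FLuc) and 0.13 to 0.37 (SM over GFP). The frame share difference ranged from -1.10 to 3.85 percentage points, and was -0.96 without replicate 1 and -1.10 without nonoptimal replicate 1. SM windows called ranged from 0 to 1 in footprints and from 0 to 3 in RNA, and were 0 under the other alternatives, in which between 0 and 9 (footprints) and 5 and 20 (RNA) windows of all segments were called. SM codons without overlap rose to between 37 and 54 with 2 against 2 libraries, where separation is likelier by construction. SM over GFP in footprints turned to 0.10, 0.081 and 0.044 without replicate 3, nonoptimal replicate 3 and optimal replicate 1, within a range of -0.18 to 0.10.

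Numbers did not pair the reporters: same-numbered libraries had correlated deviations of -0.038, -0.41 and 0.093 in Ribo-seq and 0.019, 0.093 and -0.25 in RNA-seq over 61 windows. With the replicate block the differences were 1.62, 2.06, 0.44, -0.89, 0.13, 0.26 and 1.94 as before (exact permutation p of at least 0.25), and 0 SM windows were called in footprints and in RNA.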

Other observations

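Footprints on SM were shorter than those on Renilla in the same libraries, and so were those on FLuc and GFP. Mean lengths on FLuc, 28.28 nt ± 0.188 (SD, n = 6), and on GFP, 28.32 nt ± 0.178 (SD, n = 6), were below Renilla in every library. Within 27 to 30 nt, the mean length was 28.2 nt ± 0.138 (SD, n = 6) on SM and 28.6 nt ± 0.0782 (SD, n = 6) on Renilla, lower by 0.25 to 0.60 nt in 6 of 6 libraries (exact sign-flip permutation test chosen after the data were seen, p = 0.0312, adjusted p = 0.0469 over 6 relations). Against FLuc and GFP, which lie on the same mRNA, SM was shorter in 4 and 5 of 6 libraries, by means of -0.066 nt (SE 0.032, exact permutation p = 0.125, adjusted p = 0.125) and -0.10 nt (SE 0.034, exact permutation p = 0.0625, adjusted p = 0.075).

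Footprints also reached into SM from upstream. Sense footprints of 27 to 30 nt that overlapped SM but began before it numbered 8, 14 and 3 in the nonoptimal and 0, 6 and 4 in the optimal replicates, while 5, 12 and 3 and 4, 7 and 3 began on codon 1 itself.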
